A study of Bos taurus with 2 samples.

Results

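S100 proteins and antimicrobial peptides were examined in the muzzle of native Korean cattle (HanWoo). The arrays held 91 probes for 44 of these genes, out of 43639 probes and 9647 named genes in all. A probe was taken when its accession led to a gene symbol that begins with S100, DEFB or CATHL, or to EBD, LAP, TAP, LCN2, SLPI, PI3, WFDC2, BPI, BPIFB1, LBP, PGLYRP1, PGLYRP3, HP, SAA3 or RNASE4. The probes comprised 28 for 15 S100 proteins, 23 for 12 beta-defensins, 10 for 6 cathelicidins, 11 for 4 proteins that bind bacterial surfaces, 5 for 3 inhibitors of the WAP family, and 11 for HP, SAA3 and RNASE4. A further 3 probes belonged to S100PBP, a binding partner of S100P that shares the start of the name but is not an S100 protein. No probe was matched to 18 further symbols that the choice covers, and these were not analysed here (DEFB1, DEFB13, DEFB108B, DEFB110, DEFB113, DEFB114, DEFB115, DEFB116, DEFB121, DEFB125, DEFB129, DEFB132, DEFB134, DEFB136, LCN2, PGLYRP3, S100A5 and S100Z).

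The samples were nose tissue of 1 light-muzzle cow (tissue color yellow) and 1 dark-muzzle cow (tissue color black), both female Hanwoo aged 30 months, with no treatment given in the labels. Per the study's methods, the front of the muzzle was removed surgically, from animals of a slaughter house, and each cow was chosen as a representative of its muzzle color, so muzzle color and animal cannot be told apart. Each RNA was read alone on a 1-colour Agilent bovine array, and both arrays lay on the same slide. Since each muzzle color rests on 1 array, no difference below could be checked against replicates and no test was made. The cows are called the light muzzle and the dark muzzle from here on.

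S100 proteins are small calcium-binding proteins, many of which change the activity of a partner protein inside the cell. S100A7, S100A8, S100A9 and S100A12 are also released by keratinocytes and neutrophils, and bind zinc or manganese that microbes need. Beta-defensins are short cationic peptides that disrupt microbial membranes, and those of cattle were described in tongue, trachea and gut epithelium as well as in neutrophils. Cathelicidins are stored in neutrophil granules as precursors. The bovine muzzle is hairless, keratinised skin over serous nasolabial glands, so both a cornified surface and a gland secretion can carry such proteins.

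The level of a probe is the log2 of its processed signal, an intensity after background subtraction, minus the 75th percentile of its array. A level of 0 therefore stands for a signal of 1144 on the array of the light muzzle and 1137 on that of the dark muzzle. Every ratio is the log2 level in the dark muzzle minus that in the light muzzle. Of the 91 probes, 71 were well above background in both cows, 2 in the dark muzzle only, 2 in the light muzzle only, and 16 in neither. A probe above background in only 1 cow has a lower bound for its difference, computed as its bright level against the other array's lowest level well above background (-5.78 in the light muzzle and -5.81 in the dark muzzle) or against its own dim level, if higher. Probes above background in neither cow have no ratio. The error that the scanner software assigned to a ratio had a median of 0.20 (log2) over the 71 probes and a maximum of 0.41. Its minimum was also 0.20, so it hardly differed between many probes and is not a spread measured here. Between probes of the same gene, the SD of the ratio had a median of 0.14 over 20 genes, beside 0.18 over 7661 accessions of the whole array. These errors describe spots and probes, not animals.

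In the dark muzzle, 7 of 15 S100 genes were at least 2-fold higher and 0 lower. Of the antimicrobial genes other than beta-defensins, 7 of 12 with a ratio or bound were at least 2-fold lower and 0 passed 2-fold upwards. Among them CATHL2 had only a lower bound, of 1.90-fold higher, so its place against 2-fold is not known. Under normexp background correction, 2 bacterial surface binding proteins, 1 WAP family inhibitor and 1 of HP, SAA3 and RNASE4 were at least 2-fold lower. Of the cathelicidins, 0 were. Of the beta-defensin genes with a ratio, 2 of 11 were higher and 1 was lower. Pooling the other antimicrobial groups was not planned. Of the 75 probes with a ratio or bound, 14 were higher in the dark muzzle by at least 2-fold, or 18.7%, beside 9.76% of the 36630 probes of the array with a ratio or bound. At least 2-fold lower were 17, or 22.7%, beside 7.17% of the same 36630 probes. Counted once per gene, 9 of 39 genes were higher and 8 were lower, beside 9.86% and 6.47% of all 8914 genes with a ratio or bound. S100 genes made up 7 of the 9 higher genes and 0 of the 8 lower genes. The median ratio over the 75 probes was 0.066 beside 0.028 for those 36630. In bulk tissue, fewer cells of a type and less RNA per cell cannot be told apart.

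**Figure D1:**
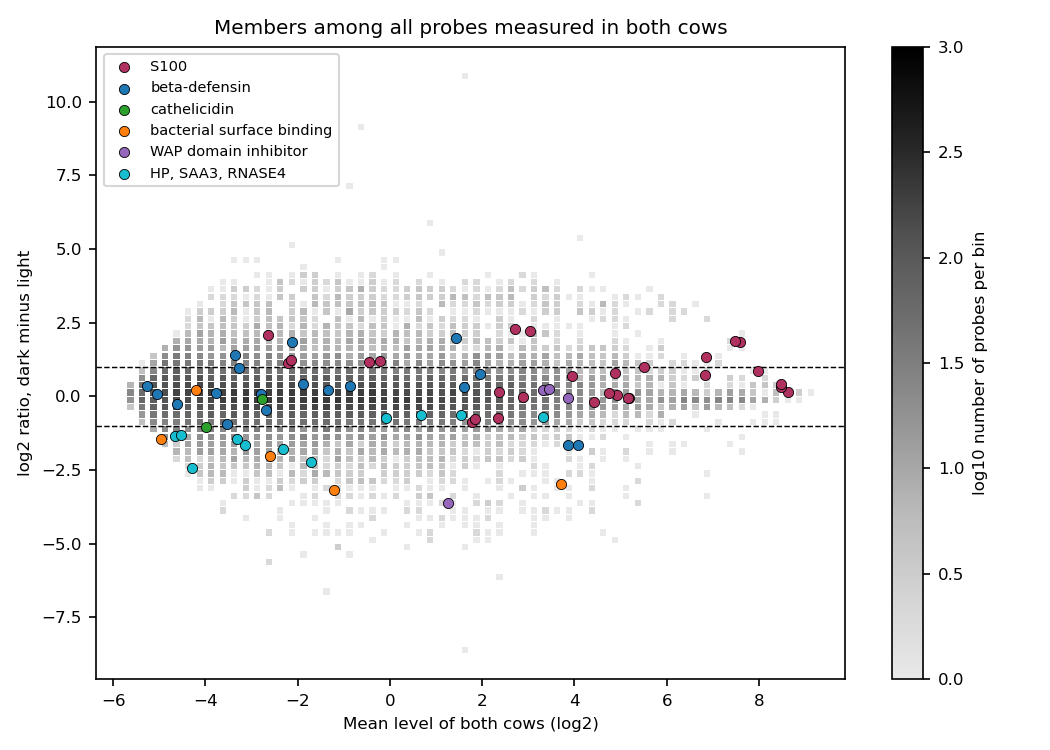
Log2 ratio (dark muzzle minus light muzzle, vertical axis) against the mean log2 level of both cows (horizontal axis). Grey squares are bins of all probes well above background in both cows, darker with more probes, and coloured points are the probes of the 6 gene groups measured in both cows. Dashed lines mark 2-fold. S100 probes reach the upper line or pass it in 11 cases, and none lies under the lower line, while the probes of bacterial surface binding proteins and of HP and SAA3 lie mostly under it.

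All 28 S100 probes were well above background in both cows. In the dark muzzle 11 of them were at least 2-fold higher, 17 differed by less than 2-fold, and 0 were at least 2-fold lower. The shares over all probes with a ratio or bound were 9.76% higher and 7.17% lower. The median ratio of the S100 probes was 0.72. By gene, S100A1, S100A2, S100A3, S100A7, S100A9, S100A16 and S100G were at least 2-fold higher. The median over the 15 genes was 0.84, beside 0.065 over all 8914 genes with a ratio. Over the other processing choices, between 5 and 7 S100 genes passed 2-fold upwards and 0 downwards.

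S100A7 (psoriasin), a zinc-binding protein of keratinocytes that is known in cattle as a dander allergen, had probes at log2 levels of 6.56 and 6.65 in the light muzzle. The same probes stood at 8.43 and 8.51 in the dark muzzle, a difference of 3.65-fold and 3.61-fold. The probes differed from each other by 0.018 in ratio, and over the other processing choices the gene's ratio lay between 1.77 and 1.88. S100A9 and S100A8 form the heterodimer calprotectin, which withholds metals from bacteria and fungi. S100A9 went from a level of 6.19 in the light muzzle to 7.53 in the dark muzzle, 2.53-fold higher. S100A8 went from 7.56 to 8.40, 1.80-fold higher and short of the threshold. S100A12 (calgranulin C), which binds zinc and the receptor AGER, had levels of 8.28, 8.32 and 8.56 in the light muzzle and 8.68, 8.65 and 8.72 in the dark muzzle. Its ratios were 0.15, 0.32 and 0.40, beside an assigned error of 0.20 for each probe. That error is not a measured spread, so it does not show which of these differences exceed noise. The S100A12 probes were intense, with pixel signals between 40.7% and 65.1% of the scanner's saturation value in the light muzzle and between 51.2% and 73.1% in the dark muzzle. S100A7 reached 56.5% and S100A8 55.8% in the dark muzzle. No spot was marked as saturated, and the part of these high signals in the ratios was not tested.

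Neutrophils are the other main source of S100A8, S100A9 and S100A12. Of 6 neutrophil marker genes with a ratio, 1 was higher in the dark muzzle by at least 2-fold (MPO, the myeloperoxidase of the granules, at least 3.03-fold higher and above background in that cow only) and 1 was lower (MMP9, 2.03-fold). CXCR1 was well above background in neither cow. The summed linear level of the marker list was 15.6 in the light muzzle and 12.2 in the dark muzzle, where 1 stands for the 75th percentile of the array. TREM1, at log2 levels of 3.77 and 3.32, made up most of both sums. The part of neutrophils in the S100 ratios was not tested.

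Of the S100 proteins known from squamous epithelium and hair, S100A2, S100A3, S100A14 and S100A16 had ratios above 0, with S100A14 short of 2-fold. Other S100 genes did not, such as S100A11 at -0.020 and S100A10 at -0.042. S100A2, a nuclear S100 protein of basal epithelial cells, went from a level of 5.01 to 6.01. It lay at the 2-fold threshold, and its ratio was 0.77 under quantile normalization. S100A14 was 1.66-fold and 1.72-fold higher by its 2 probes, with levels of 6.46 and 4.48 in the light muzzle and 7.20 and 5.26 in the dark muzzle. S100A16, which can pair with S100A14, had probe ratios of 0.70, 1.15 and 1.18, for a gene ratio of 1.01, or 0.94 under normexp background correction. The brightest probe, at levels of 3.60 and 4.30, had the smallest ratio, while the other probes went from -1.04 to 0.11 and from -0.80 to 0.38. S100A3, a cysteine-rich protein of the hair cuticle, went from -3.69 to -1.61, 4.24-fold higher, and 1.46 on the log2 scale in place of 2.08 under normexp. Keratinocyte markers differed in part in the same direction. Of 7 with a ratio, KRT10 (1.57), LOR (1.41) and IVL (1.26), which mark differentiated layers, were at least 2-fold higher, whereas the basal keratins KRT5 (-0.52) and KRT14 (-0.41) had ratios below 0. The summed level of this list was 557 in the light muzzle and 867 in the dark muzzle. The part of these markers in the S100 ratios was not tested.

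S100A1 had the largest ratio of the family. It is a protein of muscle fibres that binds the ryanodine receptor and the calcium pump of the sarcoplasmic reticulum. Its probes had levels of 1.56 and 1.93 in the light muzzle and 3.85 and 4.15 in the dark muzzle, which is 4.88-fold and 4.68-fold higher. Skeletal muscle markers moved with it. All 9 markers with a ratio were higher in the dark muzzle by at least 2-fold, from 2.24 for ACTA1 to 3.50 for MYH1, and the summed level of the list was 217 in the light muzzle and 1292 in the dark muzzle. The part of muscle in the S100A1 ratio was not tested.

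S100G (calbindin), a vitamin D-dependent calcium carrier of gut epithelium, went from -2.77 to -1.66 by 1 probe and from -2.76 to -1.53 by the other. The gene was 2.25-fold higher, with a ratio of 0.96 under normexp. VDR, the vitamin D receptor and the only gene of its pathway list with a ratio here, had a ratio of 0.47. S100B, known from Schwann cells, melanocytes and cartilage, was the S100 protein with the lowest ratios. Its levels were 2.22, 2.23 and 2.72 in the light muzzle and 1.35, 1.47 and 1.96 in the dark muzzle, and the gene was 1.74-fold lower, short of 2-fold. Schwann cell markers lay between -0.36 and 0.24, with 0 of 5 at 2-fold. Of 5 melanocyte markers, TYR (1.34), PMEL (1.70) and TYRP1 (at least 9.72-fold) were at least 2-fold higher, while MITF had a ratio of 0.86 and DCT one of -0.52. The part of these cells in the S100B ratio was not tested.

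The remaining S100 proteins were close to equal in both cows. S100A4, found in fibroblasts and leukocytes, had levels of 5.18 and 5.20 in the light muzzle and 5.13 and 5.15 in the dark muzzle, and the ratios of its probes differed by 0.0021. S100A10, the light chain of the annexin A2 complex, had levels of 2.92 and 2.87. S100A11, a partner of annexin A1, had levels of 4.52, 4.71 and 4.90 in the light muzzle and 4.33, 4.81 and 4.93 in the dark muzzle. S100A13, which takes part in the release of FGF1, had a ratio of 0.15. The annexin partners had ratios of 1.01 for ANXA1 and -0.37 for ANXA2. S100PBP had probe ratios of -0.82, -0.55 and -0.010.

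**Figure D2:**
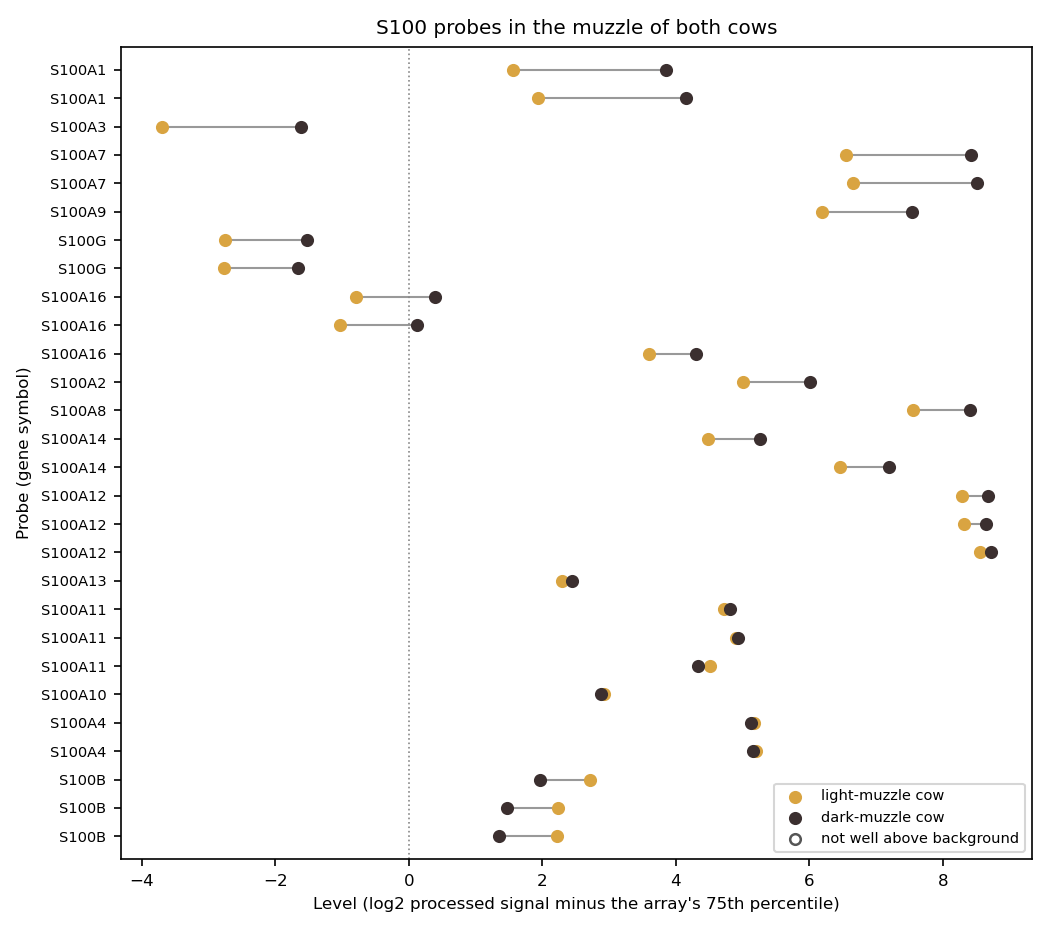
Log2 level (horizontal axis, relative to the 75th percentile of each array) of each of the 28 S100 probes in the light muzzle (yellow points) and the dark muzzle (dark points), with a grey line between the pair. Probes are ordered by the mean ratio of their gene, and the dark points lie to the right for S100A1, S100A3, S100A7 and S100A9, on the light points for S100A4 and S100A10, and to the left for S100B.

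Many of the S100 genes neighbour each other, as the RefSeq table of assembly ARS-UCD2.0 orders them. The run from S100A1 to PGLYRP3 held 13 genes of the rule and 5 others, where at most 5 other protein-coding genes were allowed between members. Of the 11 with a ratio, 6 were higher in the dark muzzle by at least 2-fold and 10 had a ratio above 0. Of all 8914 genes with a ratio or bound, 9.86% were at least 2-fold higher and 4918 lay above 0. The 11 are S100 genes already counted above, so the run is not a separate result. S100A16 fell under 2-fold with normexp (0.94) and S100A2 with quantile normalization (0.77). Some neighbours had close ratios, such as S100A16 at 1.01 and S100A2 beside it at the 2-fold threshold. Others did not, such as S100A3 at 2.08 next to S100A4 at -0.050, and S100A12 at 0.29 between S100A8 and S100A9. Other cornified envelope genes of the epidermal differentiation complex had ratios of 3.37 for SPRR1B, 2.25 for CRCT1, 1.41 for LOR and 1.26 for IVL. These were the 4 of 15 listed genes with a matched probe, all of them at least 2-fold higher, and their summed level was 83.5 in the light muzzle and 316 in the dark muzzle.

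**Figure D3:**
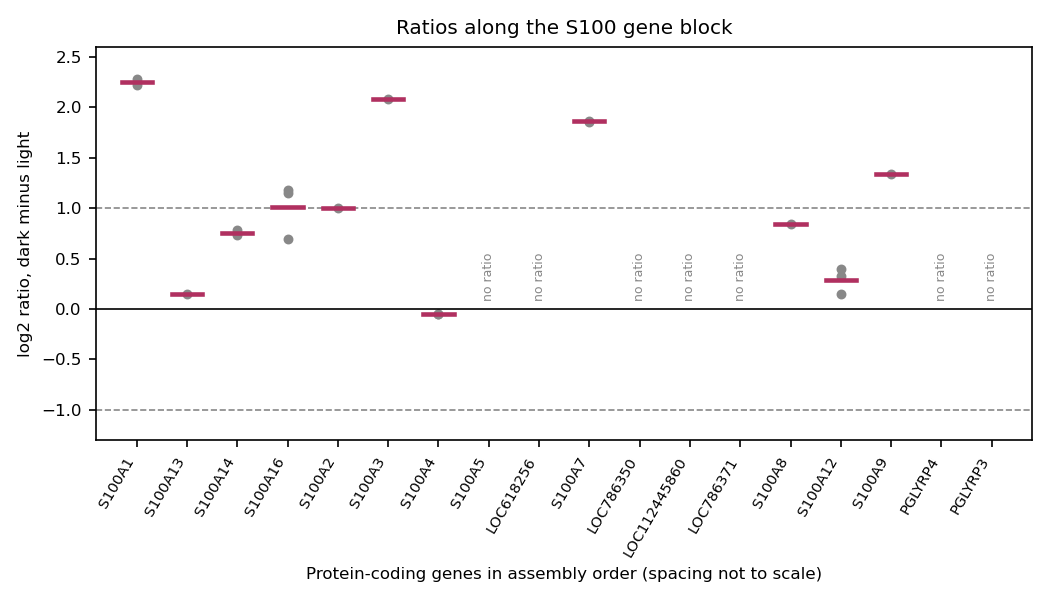
Log2 ratio (dark muzzle minus light muzzle) of the protein-coding genes from S100A1 to PGLYRP3 in assembly order, with spacing not to scale. Grey points are probes, red bars the mean of a gene's probes, and dashed lines mark 2-fold. Ratios run from -0.050 for S100A4 to 2.26 for S100A1.

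Beta-defensins had ratios on both sides of 0. Of 23 probes, 18 were measured in both cows, 1 was above background in the light muzzle only and 4 in neither. Of the 19 probes with a ratio, 3 (15.8%) were at least 2-fold higher, 3 (15.8%) were at least 2-fold lower, and the median was 0.21. Over all probes with a ratio or bound, the shares were 9.76% and 7.17%. By gene, 2 of 11 were higher and 1 was lower, beside 9.86% and 6.47% of all genes. In this count DEFB119 stands under 2-fold by 1 dim probe with a ratio of 0.36. Its probe spotted 4 times, at least 2.62-fold lower, has only a bound and is not used there. LAP (lingual antimicrobial peptide), an inducible defensin of tongue and other squamous epithelium, went from a level of 0.45 to 2.41, 3.89-fold higher. TAP (tracheal antimicrobial peptide), its relative in airway epithelium, went from 1.58 to 2.33, 1.68-fold higher. EBD (enteric beta-defensin) was higher by each of its 4 probes, with levels of -1.03, -2.10, -3.76 and -4.06 in the light muzzle and -0.69, -1.67, -2.79 and -2.65 in the dark muzzle. The ratios were 0.33, 0.43, 0.97 and 1.41 in the same order. Its brighter probes had the smaller ratios, and the highest ratio was 0.97 under normexp. DEFB7 had a probe from -3.05 to -1.22, 3.55-fold higher, and another from -1.44 to -1.23, only 1.16-fold higher, so the mean of 1.02, or 0.81 under normexp, rests on the first. Bovine beta-defensins resemble each other in sequence, probe sequences were not used here, and cross-hybridisation between them was not tested.

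The gene listed as DEFB went the opposite way. Its probes had levels of 4.69 and 4.91 in the light muzzle and 3.02 and 3.24 in the dark muzzle, a gene ratio of -1.67 or 3.18-fold lower, and they differed by only 0.0017 in ratio. In the same run of genes, LAP, DEFB7 and EBD had ratios above 0, DEFB4A, an inducible defensin first found in neutrophils, had 0.087, and DEFB10 had -0.48. A second run, from DEFB132 to DEFB124, held DEFB119, DEFB122, DEFB122A, DEFB123 and DEFB124, of a subfamily known from the male reproductive tract. DEFB122 had 1 probe at 1.45 and 1.75, another at -2.82 and -2.75, and 1 more above background in neither cow. DEFB124 was 1.93-fold lower and DEFB123 1.19-fold lower in the dark muzzle. A DEFB119 probe spotted 4 times, at levels of -4.42 and -6.27, was well above background in the light muzzle only and lower in the dark muzzle by at least 2.62-fold, with an SD of 0.049 between spots in the unbounded log2 difference. Under normexp this bound was -0.39. Another DEFB119 probe, at -5.45 and -5.09, had a ratio of 0.36, and the remaining one was above background in neither cow. DEFB122A was above background in neither cow.

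Cathelicidins were close to background. Of 10 probes, 6 were well above background in neither cow, among them every probe of CATHL1, CATHL3 and CATHL4, the precursor of indolicidin. CATHL5, the precursor of a peptide that permeates membranes, went from -3.47 to -4.51, 2.06-fold lower in the dark muzzle, with a ratio of -0.53 under normexp. CATHL6, the precursor of a similar peptide, had levels of -2.72 and -2.81. CATHL2, a precursor of a proline-rich peptide, had 2 probes above background in the dark muzzle only, at least 1.69-fold and 1.90-fold higher. The neutrophil markers given beside the calgranulins apply here too, since cathelicidins are stored in those cells.

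Of the 4 proteins that bind bacterial surfaces, LBP, BPIFB1 and PGLYRP1 were lower in the dark muzzle by at least 2-fold and BPI was not. Of 6 probes with a ratio or bound, 5 were at least 2-fold lower and 0 higher. The shares over all probes of the array were 7.17% lower and 9.76% higher. LBP, which hands bacterial lipopolysaccharide to CD14, had 1 bright probe that went from 5.20 to 2.21, 7.96-fold lower. The other 4 probes of LBP, which carry the same accession, were well above background in neither cow, so the value rests on that probe. BPIFB1, a secreted lipid-binding protein of glands and airways, went from 0.37 to -2.82, 9.11-fold lower. Its second probe, at -1.92 in the light muzzle, was not well above background in the dark muzzle. It was at least 14.8-fold lower there, and its bound of -3.89 was -2.17 under normexp. PGLYRP1, which binds peptidoglycan, went from -1.59 to -3.60 by 1 probe and from -4.22 to -5.69 by the other. It was 3.35-fold lower by their mean, with a ratio of -0.99 under normexp. The dimmer of these probes stood near the limit of detection in the dark muzzle, and its ratio was -0.51 under normexp. BPI, a neutrophil granule protein, had levels of -4.32 and -4.10 by 1 probe, and its other probe was above background in neither cow.

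Among the inhibitors of the WAP family, WFDC2 was at a level of 3.06 in the light muzzle and -0.55 in the dark muzzle. This 12.2-fold lower level rests on 1 probe, and its ratio lay between -3.68 and -3.52 over the other processing choices. PI3 (elafin), an elastase inhibitor of cornified epithelium, had ratios of -0.070, 0.21 and 0.24, beside the software's assigned error of 0.20. SLPI, another elastase inhibitor, was well above background in neither cow.

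All 11 probes of HP, SAA3 and RNASE4 had ratios below 0. In the dark muzzle 7 of them were at least 2-fold lower, beside 7.17% of all probes with a ratio or bound. SAA3, the serum amyloid A of epithelium and mammary gland, had levels of -2.58, -2.31, -1.42 and -0.59 in the light muzzle and -4.04, -3.96, -3.22 and -2.83 in the dark muzzle. Each of its probes was lower, between 2.74-fold and 4.72-fold. The gene's ratio of -1.78 was -1.29 under normexp, where its probe of smallest difference had -0.94. HP (haptoglobin), which captures free haemoglobin, had levels of -3.98, -3.86 and -3.07 against -5.34, -5.19 and -5.52. It was 3.28-fold lower, but the dark-muzzle levels stood near the limit of detection, and its ratio of -1.71 was -0.71 under normexp. RNASE4, a secreted ribonuclease, had 4 probes between -0.73 and -0.63, 1.61-fold lower by their mean. Of the liver and plasma markers, ALB was at least 4.75-fold lower and FGB 2.41-fold lower, while AHSG was 6.02-fold higher, among 5 genes. Their part in the HP and SAA3 ratios was not tested.

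**Figure D4:**
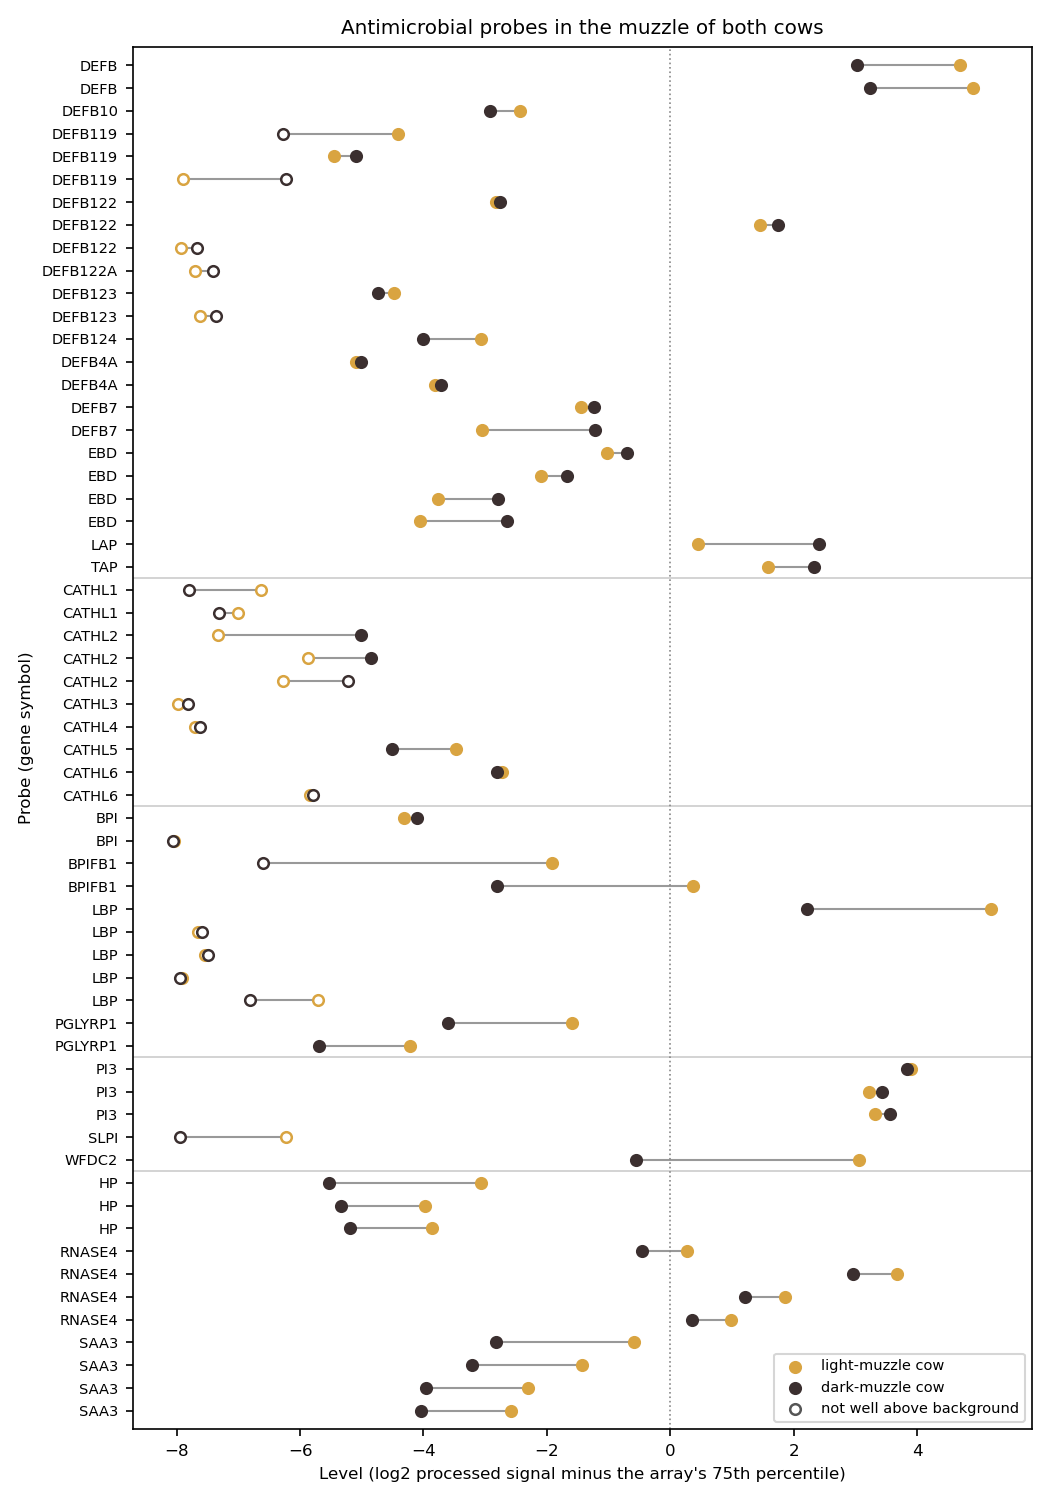
Log2 level (horizontal axis, relative to the 75th percentile of each array) of the probes of beta-defensins, cathelicidins, bacterial surface binding proteins, WAP family inhibitors, and HP, RNASE4 and SAA3, from top to bottom and separated by lines, in the light muzzle (yellow) and the dark muzzle (dark). Open points were not well above background. The light-muzzle level is the higher one for BPIFB1, for PGLYRP1, for WFDC2 and for every HP, RNASE4 and SAA3 probe, and the dark-muzzle level is the higher one for LAP, TAP and EBD.

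The cathelicidins, binding proteins, inhibitors, HP, SAA3 and RNASE4 together had 12 genes with a ratio or bound. Of these, 7 were at least 2-fold lower and 0 passed 2-fold upwards, with a median of -1.38. CATHL2 entered by its lower bound only. Fewer of the 12 genes were at least 2-fold lower under normexp, as given above. Markers of serous gland moved with these genes. Of 7 with a ratio, 5 were lower in the dark muzzle by at least 2-fold, among them MSMB (-6.18) and PIP (-4.89), and BPIFA1 (1.29) was higher. The summed level of that list was 275 in the light muzzle and 16.2 in the dark muzzle. ODAM was well above background in neither. Of other secreted defence proteins, LTF (lactoferrin), which binds iron, went from 3.64 to -0.95, 24.1-fold lower over 5 probes, and PIGR, the carrier of secretory antibodies, was 9.79-fold lower. BPIFA1 and CST6, a cystatin of cornified epithelium (1.43), were higher, and the other 6 of 10 genes, LYZ and LPO included, differed by less than 2-fold. The part of gland tissue in these ratios was not tested.

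Receptors and signals that are known to induce these genes mostly differed by less than 2-fold. Of 19 Toll-like receptor pathway genes with a ratio or bound, 18 had a value under 2-fold, and the median was -0.055. For TIRAP that value was only a lower bound, of 1.24-fold lower, so its place against 2-fold is not known. TLR7 was lower in the dark muzzle by at least 3.27-fold. TLR8 and TLR10 were well above background in neither cow. Of 10 cytokine and receptor genes, IL1A (1.13) and IL36RN (1.36), the antagonist of the IL36 receptor, were at least 2-fold higher and 0 were lower, with a median of 0.27. IL17A, IL22 and CCL20 were well above background in neither cow. Among 8 partners of S100 proteins, CD36 (3.29), a fatty acid receptor that is also abundant in muscle, and ANXA1 (1.01) were higher, while AGER had a ratio of -0.63 and TLR4, the receptor of calprotectin, one of -0.60.

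**Figure D5:**
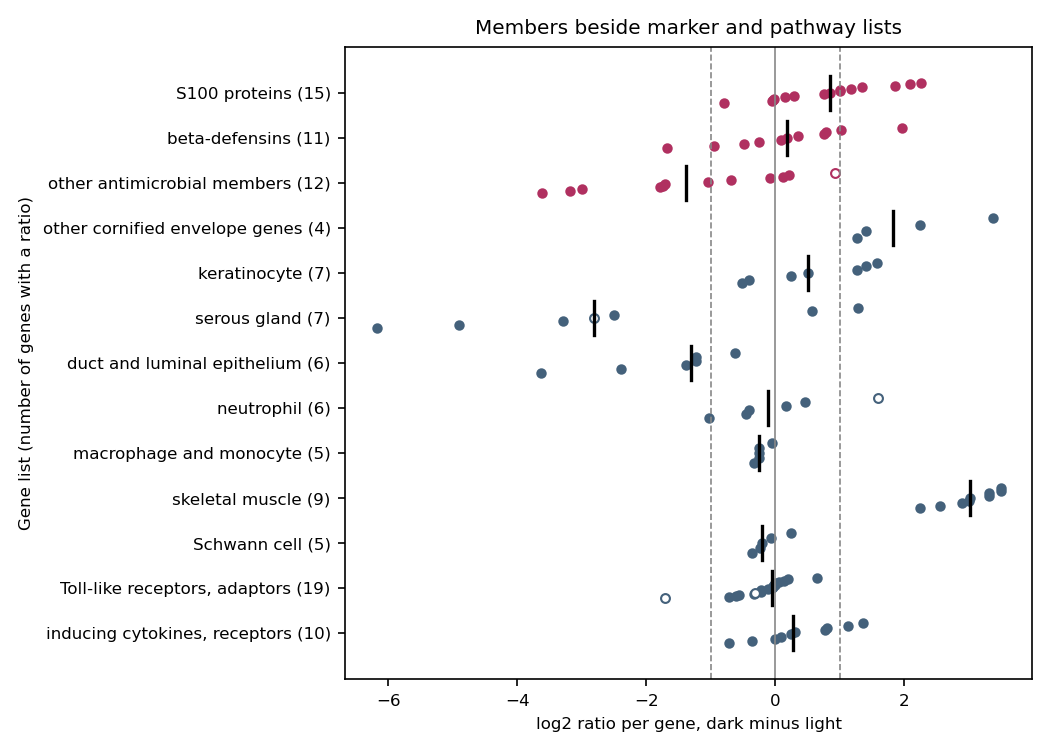
Log2 ratio per gene (dark muzzle minus light muzzle, horizontal axis) for the S100 proteins, the beta-defensins and the other antimicrobial genes (red) and for marker and pathway lists (blue), with the number of genes that have a ratio in brackets. Open points are lower bounds, black bars are medians and dashed lines mark 2-fold. The medians are 0.84 for S100 proteins, 0.18 for beta-defensins and -1.38 for the other antimicrobial genes, beside -2.81 for serous gland (the bound of STATH), 0.50 for keratinocyte and 3.01 for skeletal muscle markers.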

How the data were processed

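RNA of 1 light-muzzle and 1 dark-muzzle cow was labelled with Cy3 and hybridised to 1 array each. The authors extracted the images with Agilent Feature Extraction 10.7.3.1 and deposited per-spot intensity values, background-subtracted and detrended within each array. They also deposited a log2 table, normalized in GeneSpring, which was used as an alternative. Here, control spots and outlier spots (13 noncontrol spots per array) were left out, log2 processed signals were shifted by each array's 75th percentile, and spots of a probe were averaged. The signal was well above background for 78.8% (light) and 81.9% (dark) of 43803 noncontrol spots.

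Accessions gave a RefSeq symbol (ARS-UCD2.0) to 20587 of 43639 probes. The array's design names build Btau_3.1, so no probe coordinate was used, and RefSeq positions served only for the order of genes. A gene's value was the mean of its probes measured in both cows, or otherwise its largest bound. The members, the 6 other gene lists and the 13 marker lists were chosen with earlier results of these data known. Every gene of the rule was named, and of the other lists up to 3 genes past 2-fold in each direction. Other list genes (KRT5, KRT14, VDR, ANXA2, AGER, TLR4, TREM1, LYZ, LPO, CD1A, MITF, DCT, those above background in neither cow, and extremes of a range) were named after their values were seen. Markers known under an older symbol were matched through synonyms.

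Alternatives were other shifts, quantile, loess (span 0.3) and normexp (offset 50, on median pixel signals, since mean pixel signals were not used here) processing with limma 3.58.1 in R 4.3.3, other dim-probe and outlier rules, and other thresholds. The rest was run in Python 3.11.15 with numpy 2.4.6 and pandas 2.3.3, and the ratio and bound functions were tested on simulated data. With 1 array per group, the number of arrays limits the precision.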

Additional observations from a re-analysis of the deposited data

How the results depend on the processing

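As reported, 14 probes were higher in the dark muzzle by at least 2-fold and 17 were lower. Under normexp background correction 11 were higher and 11 lower, while the shares over all probes with a ratio also fell, to 5.83% and 4.28%. With a threshold of 1.5-fold 22 were higher and 26 lower, and with 3-fold 7 were higher and 11 lower. Shares over all probes are not given at these thresholds, so these counts cannot be set beside the whole array. With 1 value per gene 9 were higher and 8 lower, since fewer values were counted. The median ratio, 0.066 as reported, was -0.14 under quantile normalization. Leaving out S100PBP, an alternative chosen after seeing the data, gave the same counts. No ratio past 2-fold changed sign under the settings tried. Of the 75 single ratios, 24 moved by more than 0.18 (log2) under normexp, 23 under quantile and 7 under loess normalization, 3 without a filter on dim probes, and 0 under the other shifts, with outlier spots kept or in the authors' table. The offset that normexp adds to both signals shrinks the ratio of a dim probe by construction. The part of the offset, and any other cause of these moves, was not tested. No paired analysis was possible because each group holds 1 array. Signal over background limits the cathelicidins, HP, DEFB119 and the dimmer PGLYRP1 probe.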

Other observations

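Epithelium of ducts and lumina, which also secretes WAP family and BPI-fold proteins, had 5 of 6 markers lower in the dark muzzle by at least 2-fold. KRT7 was 12.4-fold lower and KRT8 5.24-fold lower by the mean of 4 probes that ranged from -3.25 to -0.18, and the summed level was 142 in the light muzzle and 78.4 in the dark muzzle. Macrophage and monocyte markers lay between -0.33 and -0.055, with 0 of 5 at 2-fold, and T and B lymphocyte markers between -0.40 and 0.65, with 0 of 7. Of the Langerhans and dendritic cell markers, CD1E had a ratio of 1.10 and CD1A one of -0.063. Erythrocyte markers, a source of the haemoglobin that HP binds, lay between -0.51 and -0.050 in 3 genes, and ALAS2 was well above background in neither cow. Of 3 cartilage markers with a ratio, HAPLN1 was at least 3.55-fold lower, and ACAN was above background in neither cow.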
